A study of Mus musculus with 14 samples.

Results

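The genes Egr1, Egr2, Egr3, Egr4, Nr4a1, Nr4a2, Nr4a3, Ier2, Ier3 and Ier5 were followed by name through every mouse liver library of the series. These 10 early response genes were found among 35171 named rows of the bulk tables and among 28692 genes of the single-cell matrix. Bulk RNA came from 4 groups. Quiescent hepatic stellate cells, which store retinoids and wrap the sinusoids, were never plated (4 libraries). They carried LratCre+, TdTom+ in C57BL/6J, so that the Lrat promoter, active in stellate cells, switched on the red reporter, and after perfusion, enzymatic digestion and a gradient they were sorted for vitamin A and TdTom. Whole liver (3 libraries) had the same strain label and no liver damage, and no digestion is described for it. Stellate cells kept in culture for 24 h (3 control libraries) carried the strain label Balbc. They were plated for 5 h in DMEM with 10% serum and moved to 0.1% serum, and no sort is described for them. The treated cultures (3 libraries) were handled likewise and received 10 µM UDP-glucose, an agonist of the receptor P2Y14. Their titles say UDP and their descriptions UDP-glucose. A single-cell library was made from the digested normal liver of C57BL/6 with the Chromium 3′ v2 kit. The study concerns P2Y14 as a link between dying hepatocytes and activated stellate cells. The comparisons ask how the early genes stood in freshly isolated, cultured and UDP-glucose-treated cells.

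Early response genes are transcribed within minutes of a stimulus, without new protein synthesis, when kinase cascades act on transcription factors that already sit at their promoters, such as SRF with its Elk partners at CArG boxes and CREB at cyclic AMP response elements (CRE). Egr proteins are zinc finger transcription factors that bind GC-rich DNA and are restrained by the corepressors Nab1 and Nab2. Nr4a proteins are orphan nuclear receptors whose activity is set mainly by how much of them is made, and Ier proteins are small regulators of growth, survival and stress responses. In liver these genes are known to respond to growth factors, tissue injury and the isolation of cells.

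The stretch upstream of the transcription start is shown for 5 of the genes that were lower in culture than in sorted cells, so that genes that moved together can be compared by the letters ahead of them. RefSeq (build GRCm38.p6) gave a promoter for 7 of the 10 genes, Egr2, Egr4, Nr4a1, Nr4a2, Nr4a3, Ier3 and Ier5, and none for Egr1, Egr3 and Ier2. It gave 5 starts for Egr2, of which the start of the principal annotated transcript was used. The 250 bases before the start were searched on both strands for the CRE TGACGTCA, its core TGACG, the CArG box, the Egr site GCGTGGGCG, the Nr4a site AAAGGTCA, the NF-kB site and the GC box GGGCGG. Bases that lie in an annotated exon are not shown, which leaves 98 bases for Nr4a3 and 221 for Ier3. Each sequence runs 5′ to 3′ on the gene's strand. Capitals mark a CRE core (TGACG, or CGTCA on the other strand), the CArG box of Egr2 and the NF-kB match of Ier3. Ier5, also lower in culture, is not shown, and its window held none of the matches that capitals mark.
Nr4a1, chr15:101266596-101266845, plus strand: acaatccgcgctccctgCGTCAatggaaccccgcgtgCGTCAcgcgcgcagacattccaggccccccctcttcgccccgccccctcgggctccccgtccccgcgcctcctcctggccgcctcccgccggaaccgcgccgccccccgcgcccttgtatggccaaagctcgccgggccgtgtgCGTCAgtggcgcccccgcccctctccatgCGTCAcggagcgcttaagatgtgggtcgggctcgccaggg
Nr4a2, chr2:57124004-57124253, minus strand: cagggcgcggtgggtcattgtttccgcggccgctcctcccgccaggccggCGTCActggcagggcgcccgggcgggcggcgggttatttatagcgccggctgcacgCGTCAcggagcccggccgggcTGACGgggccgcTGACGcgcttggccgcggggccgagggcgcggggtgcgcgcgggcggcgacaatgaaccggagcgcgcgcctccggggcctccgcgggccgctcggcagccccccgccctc
Nr4a3, chr4:48045055-48045152, plus strand: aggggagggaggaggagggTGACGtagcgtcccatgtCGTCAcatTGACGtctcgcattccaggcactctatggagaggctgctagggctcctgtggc
Egr2, chr10:67537619-67537868, plus strand: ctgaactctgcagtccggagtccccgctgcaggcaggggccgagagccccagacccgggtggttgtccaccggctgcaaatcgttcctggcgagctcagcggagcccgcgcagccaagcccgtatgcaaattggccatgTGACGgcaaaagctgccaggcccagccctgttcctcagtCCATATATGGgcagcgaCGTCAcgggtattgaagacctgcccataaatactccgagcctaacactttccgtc
Ier3, chr17:35821463-35821683, plus strand: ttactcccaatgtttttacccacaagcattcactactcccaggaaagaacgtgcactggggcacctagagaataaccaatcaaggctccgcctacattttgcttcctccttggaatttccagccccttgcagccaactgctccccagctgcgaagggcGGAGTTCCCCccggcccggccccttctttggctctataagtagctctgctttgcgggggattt

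Nr4a1, Nr4a2 and Nr4a3 each held 4 CRE cores in the 250-base window, 1 of those of Nr4a3 lying in the bases not shown. Of 32817 promoter windows of that length, 0.137% held 4 or more. Egr2 and Egr4 held 2 each, a count reached by 3.90% of windows, and Ier3 and Ier5 held none. The core itself was found in 5 of the 7 genes searched and in 17.8% of all windows. Of the 7 genes, Egr2 alone held a CArG box, against 1.47% of all windows. The NF-kB match was present in Egr4 and Ier3 and in 7.25% of windows, and the GC box in 5 of 7 genes and 32.7% of windows. No member window held the full CRE, the Egr site or the Nr4a site, which were present in 1.55%, 0.536% and 1.34% of all windows. The full CRE includes the core. These matches describe letters in the window and do not show binding. The windows counted as background were not matched for base content, and those of Nr4a1, Nr4a2 and Nr4a3 were 74.4%, 80.0% and 63.6% G or C.

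The identity of the groups was checked before the genes were compared. Lrat, the retinol-esterifying enzyme of stellate cells, averaged 1089 TPM (transcript abundance corrected for length and scaled to the library) in quiescent cells, 87.2 in control cultures, 65.4 in treated cultures and 1.05 in liver. Alb, the hepatocytes' albumin, averaged 24015 TPM in liver and 6.73 in quiescent cells. Markers of other cells were present in the sorted cells. All 14 Kupffer cell markers reached a mean of 1 TPM there, with a summed level of 4550 to 5534 TPM per library. Control cultures had 325 to 364 TPM, with 2 of the 14 reaching that mean and Clec4f, Vsig4 and Cd163 at 0. In whole liver the same markers summed to 79.3 to 151 TPM. Clec4f averaged 32.9 TPM in quiescent cells and 20.4 in liver, and Cd5l 21.7 and 7.69, so neither held much of the quiescent sum. The 15 sinusoidal endothelial markers summed to 542 to 1431 TPM in quiescent cells and 98.5 to 113 in control cultures, with Stab2 at 0 in every cultured library. Not all marker sets were so much lower in culture. The 8 vein endothelial markers summed to 349 to 409 TPM in quiescent cells and 263 to 345 in control cultures. The 16 hepatocyte markers summed to 60.7 to 78.1 and 239 to 272 TPM. The part of these cells in the results below was not tested, and in bulk libraries fewer cells of a type and less RNA per cell cannot be told apart. Whether replicate libraries stem from different animals or culture dishes is not stated in the labels, so the p-values describe spread among these samples only, and that spread may be technical.

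In freshly isolated quiescent stellate cells the 10 genes were high, and Egr1 dominated them. Together they took 6482 to 7911 TPM per library, against 123 to 215 in whole liver, 246 to 270 in control cultures and 256 to 274 in treated cultures. Quiescent cells thus stood far above the 3 other groups, none of whose ranges reached theirs. By mean level Egr1 ranked 30 among all genes of the quiescent cells, Nr4a1 ranked 84 and Ier2 ranked 111, whereas Egr3, Nr4a2 and Egr4 ranked 8252, 7594 and 12008. The plot of levels by library shows these values on a log scale.

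**Figure D1:**
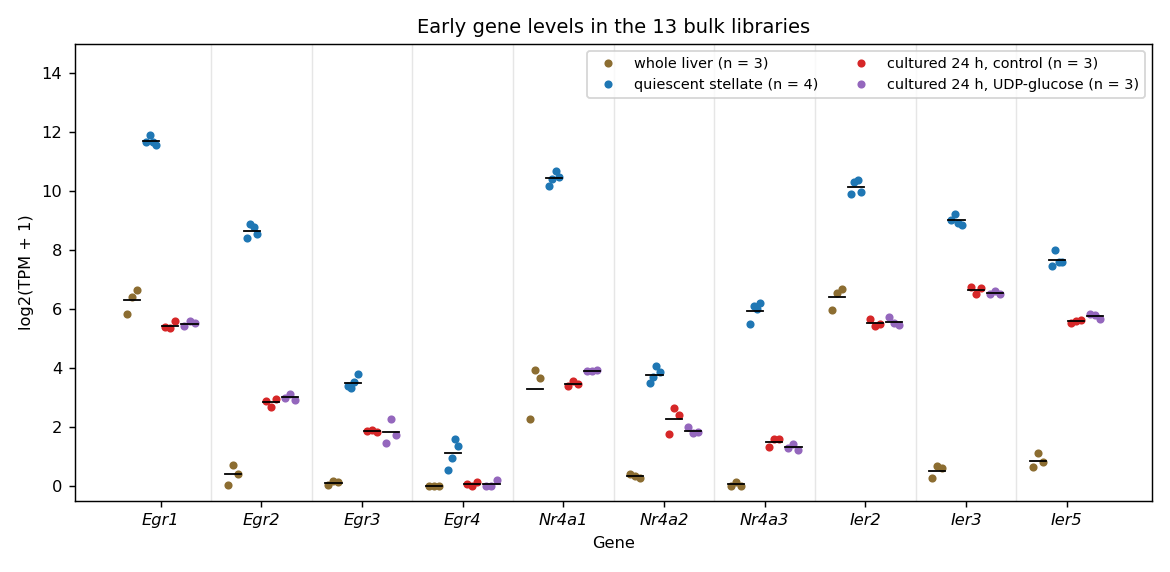
Levels of the 10 genes in the 13 bulk libraries, as log2(TPM + 1). Each point is a library and each black line is the mean of a group on that scale. The 4 quiescent libraries stand above the other groups for every gene, and Ier3 and Ier5 are near 0 in liver but not in culture.

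The Egr genes were read first. Egr1 (chr18:34859823-34864984 in GRCm38, plus strand) is a zinc finger factor induced by growth factors and injury in many tissues. It stood at 3265, 3839, 3274 and 3014 TPM in quiescent cells and at 55.9, 84.2 and 99.6 TPM in whole liver. Control cultures had 40.8, 40.0 and 47.2 TPM and treated cultures 42.0, 47.1 and 45.3 TPM. Quiescent cells were highest, liver was next and the cultures were lowest, with no overlap between liver and either cultured group.

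Egr2 (chr10:67535475-67542188, plus strand), known for its part in myelination and in immune tolerance, was at 344, 471, 441 and 374 TPM in quiescent cells. Liver libraries had 0.0207, 0.656 and 0.342 TPM. Control cultures had 6.38, 5.35 and 6.82 TPM and treated cultures 6.90, 7.75 and 6.50 TPM. Unlike Egr1, Egr2 was higher in both cultured groups than in any liver library.

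Egr3 (chr14:70077203-70082614, plus strand), a relative that acts in muscle spindles and lymphocytes, was low throughout. It had 9.42, 8.97, 10.6 and 12.8 TPM in quiescent cells, 2.67, 2.71 and 2.56 in control cultures, 1.73, 3.85 and 2.33 in treated cultures and 0.0139, 0.131 and 0.0929 in liver. Egr4 (chr6:85511121-85513589, minus strand) was near the limit of the tables. It had 0.469, 0.932, 2.06 and 1.55 TPM in quiescent cells, was listed at 0 in the 3 liver libraries, and reached at most 0.0959 TPM in control and 0.151 TPM in treated cultures. For both genes the lowest quiescent library lay above every other library.

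Among the Nr4a receptors Nr4a1 (Nur77, chr15:101254269-101274795, plus strand) was by far the most abundant. It stood at 1156, 1376, 1640 and 1419 TPM in quiescent cells and at 3.90, 14.5 and 11.6 TPM in liver. Control cultures had 9.56, 10.7 and 10.0 TPM, inside the range of the liver libraries. Treated cultures had 14.0, 14.0 and 14.2 TPM, above every control culture.

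Nr4a3 (Nor1, chr4:48045153-48086447, plus strand) had 43.8, 67.9, 63.0 and 73.3 TPM in quiescent cells, 1.51, 1.99 and 1.99 in control cultures, 1.45, 1.68 and 1.32 in treated cultures and 0.0106, 0.0962 and 0.00849 in liver. Nr4a2 (Nurr1, chr2:57106830-57124003, minus strand), best known from dopamine neurons, had 10.2, 12.0, 15.7 and 13.6 TPM in quiescent cells and 0.343, 0.267 and 0.205 in liver. Control cultures had 2.40, 5.27 and 4.35 TPM and treated cultures 3.06, 2.50 and 2.54 TPM. Both receptors were highest in quiescent cells and lowest in liver, and the 2 cultured groups overlapped.

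The Ier genes were split by their level in liver. Ier2 (chr8:84661331-84662852, minus strand), a nuclear protein linked to cell motility, had 951, 1281, 1340 and 1007 TPM in quiescent cells and 62.1, 93.0 and 102 in liver. Control cultures had 49.4, 42.2 and 44.3 TPM and treated cultures 52.5, 45.2 and 43.4 TPM, all below the lowest liver library.

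Ier3 (chr17:35821684-35822923, plus strand), a survival and stress response gene also called Iex1, had 525, 598, 486 and 468 TPM in quiescent cells. Control cultures had 108, 89.5 and 105 TPM and treated cultures 91.4, 97.6 and 89.9 TPM, but liver libraries only 0.214, 0.617 and 0.517 TPM. Ier5 (chr1:155096361-155099636, minus strand), which is tied to the heat shock factor response, had 178, 255, 191 and 194 TPM in quiescent cells, 45.6, 48.0 and 48.2 in control cultures, 56.9, 54.3 and 50.4 in treated cultures and 0.549, 1.18 and 0.762 in liver. The lowest stellate cell library of either gene (45.6 TPM) was thus far above the highest liver library (1.18 TPM).

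The make-up of this early gene pool differed between groups. Egr1 and Ier2 held 45.0% and 48.2% of the 10 genes' summed mean TPM in liver, and the other 8 genes shared the rest. In quiescent cells Egr1 held 47.1%, Nr4a1 19.7%, Ier2 16.1%, Ier3 7.30% and Egr2 5.73%. In control cultures Ier3 led with 38.6%, followed by Ier5 at 18.1%, Ier2 at 17.4% and Egr1 at 16.4%, while Nr4a1 held 3.88%. The treated cultures had the same 4 leading genes, with Ier3 at 34.9% and Ier5 at 20.2%. These shares describe group means and were not tested.

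**Figure D2:**
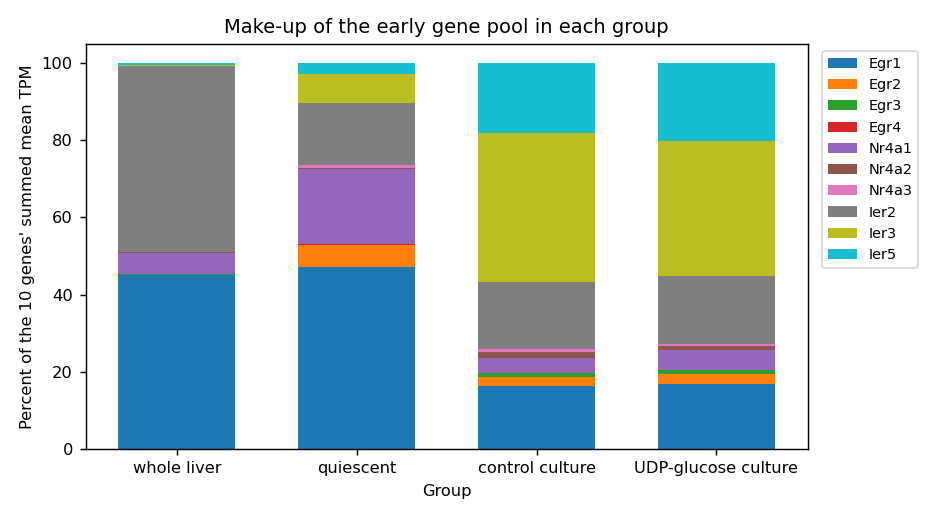
Share of the 10 genes' summed mean TPM held by each gene in the 4 bulk groups (stacked bars, percent). Egr1 and Ier2 fill nearly all of the liver bar, Egr1 and Nr4a1 lead in quiescent cells, and Ier3 leads in both cultured groups.

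Spread between replicates was moderate in the stellate cells. In quiescent cells the coefficient of variation (SD over mean, n = 4) ran from 10.4% for Egr1 to 20.7% for Nr4a3, and was 55.6% for the low Egr4. The 5 members above 100 TPM other than Egr1 (Egr2, Nr4a1, Ier2, Ier3 and Ier5) lay between 11.1% and 17.0%, where the median of all genes above 100 TPM was 7.58% and their 90th percentile 17.7%. In liver the spread was wider, and this held for all genes: at 10 to 100 TPM their median was 15.9% there and 9.91% in quiescent cells. In that range of liver Egr1 varied by 27.8%, Ier2 by 24.3% and Nr4a1 by 54.8%, where the 90th percentile of all genes was 24.9%. Replicate 1 was the lowest liver library for Egr1, Egr2, Egr3, Nr4a1, Ier2, Ier3 and Ier5. Nr4a1 varied 3.72-fold between the lowest and the highest. Among treated cultures Nr4a1 varied by 0.644%, and Egr3 by 41.4%.

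Set against whole liver, quiescent cells had more of every early gene that could be tested. limma tested 12643 genes that averaged 1 TPM or more, with Benjamini-Hochberg adjustment, and a gene was called at 0.05 if it also moved by 1 or more on the log2 scale. By this rule 9 of 9 tested members rose. Egr4 fell under the filter. Of all genes tested, 67.0% were called higher in quiescent cells, and for 91.1% the 2 groups did not overlap, as they did not for the members. The count therefore matches a comparison in which most genes rose, and the sizes carry more than the count: all genes had a median log2 fold change of 1.62.

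On the log2(TPM + 1) scale Ier3 rose most, by 8.49 (SE 0.14), followed by Egr2 at 8.27 (SE 0.18), Nr4a1 at 7.14 (SE 0.33) and Ier5 at 6.81 (SE 0.16). Nr4a3 rose by 5.90 and Egr1 by 5.41, a 41.9-fold difference in mean TPM. Ier2 rose by 3.74, Nr4a2 by 3.44 and Egr3 by 3.40. This scale understates the rise of Ier3, Egr2, Ier5, Nr4a3, Nr4a2 and Egr3, whose liver means were all under 1 TPM. The order depended on it: with a pseudocount of 0.1 Egr2 (10.20) stood above Ier3 (9.96), and Nr4a3 (8.84) above Ier5 (7.82) and Nr4a1 (7.30). With quantile normalisation Egr2 and Ier3 were nearly equal, at 7.46 and 7.45. The limma adjusted p of these 9 genes ran from 2.41e-12 for Ier3 to 6.31e-09 for Ier2. After median-of-ratios rescaling, which brought the median of all genes to -0.03 and the share of higher genes among those called from 86.0% to 48.4%, 9 of 9 members were still called higher. Sort, digestion and table differ with the group here and cannot be told apart from it.

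After 24 h in culture the early genes were far lower than in quiescent cells. All 9 tested members fell in limma's test over 12537 genes, and Egr4 again fell under the filter. The background was 13.2% of genes called lower in control cultures, and 70.0% of genes whose 2 groups did not overlap. The members' falls were among the largest of the whole table for some and moderate for others. Nr4a1 fell by 6.97 (SE 0.11, limma adjusted p = 4.84e-10), the fifth largest fall of all genes, and was 138-fold lower in mean TPM. Egr1 fell by 6.26 (SE 0.09), 78.4-fold in mean TPM and rank 9 among falls, and Egr2 fell by 5.82 (SE 0.12), rank 16.

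Ier2 fell by 4.62 (SE 0.13) and Nr4a3 by 4.46 (SE 0.17), with ranks 63 and 71. The remaining members fell less. Ier3 fell by 2.35 (SE 0.10), Ier5 by 2.08 (SE 0.12), Egr3 by 1.64 (SE 0.14) and Nr4a2 by 1.504 (SE 0.22, limma adjusted p = 0.000275). In culture Ier3 was the highest member, at 100.7 ± 9.85 TPM (mean ± SD, n = 3). Ier5 at 47.3 ± 1.48, Ier2 at 45.3 ± 3.73 and Egr1 at 42.7 ± 3.94 TPM lay close together, although their falls differed in size, and Nr4a1 was next at 10.1 TPM. The median of all genes was 0.26, and rescaling moved the share of higher genes among those called from 58.6% to 42.4% and kept 9 of 9 members called lower. Strain label, sort, culture and table all differ with the group and cannot be told apart.

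**Figure D3:**
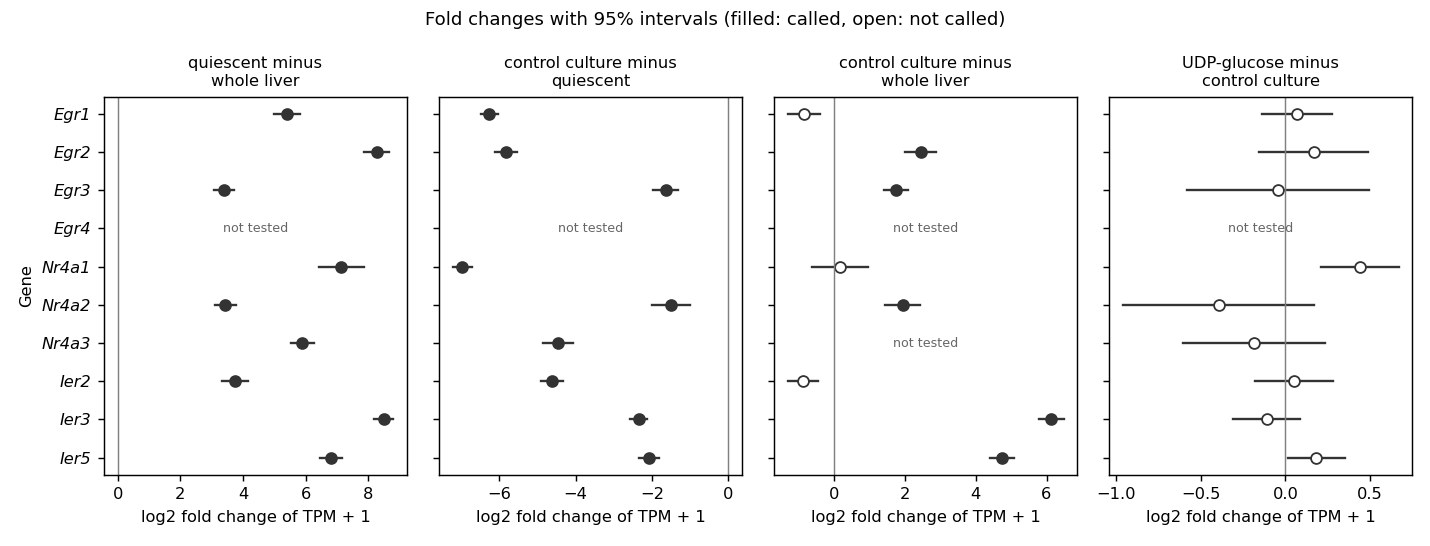
Log2 fold changes of TPM + 1 with 95% intervals for the 10 genes in 4 comparisons (filled points were called, open points were not, and each panel has its own axis range). Every tested gene lies right of 0 in the first panel and left of 0 in the second, Egr1 and Ier2 lie left of 0 in the third, and Nr4a1 and Ier5 have intervals above 0 in the last.

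Cultured cells were then set against whole liver, to place their levels beside those of the tissue. Strain label, cell make-up, isolation, culture and table all differ with the group here and cannot be told apart from it. The genes were split. In limma's test over 12563 genes 5 of 8 tested members were called higher in control cultures and 0 lower, and Egr4 and Nr4a3 fell under the filter. At an unadjusted p under 0.05, 7 of the 8 differed. Of all genes 74.5% were called higher, with a median log2 fold change of 1.95, and the 2 groups did not overlap for 94.1% of genes and for 7 of the 8 members.

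Ier3 was higher in culture by 6.14 (SE 0.15) and Ier5 by 4.74 (SE 0.15), 224-fold and 57.0-fold in mean TPM. Egr2 was higher by 2.45, Nr4a2 by 1.93 and Egr3 by 1.76. Egr1 and Ier2 went the other way. Egr1 differed by -0.85 (SE 0.20, limma adjusted p = 0.00219) and Ier2 by -0.88 (SE 0.19, limma adjusted p = 0.00111), both short of the fold minimum, with every culture below every liver library. Nr4a1 differed by 0.17 (95% interval -0.62 to 0.96, limma adjusted p = 0.646), and its groups overlapped.

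These 3 genes depended on the scale. With median-of-ratios rescaling Egr1 was lower in culture by 3.17, Ier2 by 3.20 and Nr4a1 by 1.94, all called, and Egr3 (0.89) and Nr4a2 (0.73) lost their call, while the share of higher genes among those called went from 87.7% to 45.7%. Quantile normalisation gave 58.1%, with 4 members called higher and 3 lower. Without liver replicate 1, the liver library lowest for most members, 8 members were called instead of 5: Egr1 at -1.09 and Ier2 at -1.09 passed the fold minimum and Nr4a3 passed the filter, while Nr4a1 was at -0.33. Ier3, Ier5 and Egr2 stayed called higher under both rescalings.

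Adding UDP-glucose to the cultures for 24 h gave no called change in these genes. In limma's test over 12161 genes, with no fold minimum, 0 of 9 tested members passed the adjusted threshold, against 0.609% of all genes (74 called, 52 higher and 22 lower, and 1220 at an unadjusted p under 0.05). Of the genes called, 70.3% were higher, and 84.6% with median-of-ratios rescaling, which called 0 of the 9 members as well. At that unadjusted level 2 members differed, Nr4a1 and Ier5, and they were also the only members whose 2 groups did not overlap, which held for 16.3% of all genes. Nr4a1 was 0.44 higher on the log2 scale with UDP-glucose (SE 0.10, 95% interval 0.21 to 0.67, limma adjusted p = 0.158), at 14.1 ± 0.0905 against 10.1 ± 0.585 TPM (mean ± SD, n = 3 each). It stood at percentile 98.0 of all fold changes, as a description. Ier5 was 0.18 higher (95% interval 0.01 to 0.35, limma adjusted p = 0.463).

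The intervals of the other members all included 0. Egr1 differed by 0.07 (-0.14 to 0.28), Egr2 by 0.17 (-0.15 to 0.49) and Egr3 by -0.04 (-0.58 to 0.49). Ier2 differed by 0.05 (-0.18 to 0.28) and Ier3 by -0.11 (-0.31 to 0.09). Nr4a2 differed by -0.39 (-0.96 to 0.17) and Nr4a3 by -0.19 (-0.61 to 0.23). For Egr1, Ier2 and Ier3 the interval thus held changes of at most 0.31 on this scale in either direction, and for Egr3 and Nr4a2 it also held larger ones. The cultures were sampled at 24 h, so an earlier response was not measured.

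Genes that work with or beside these members were counted from lists. Of 44 other early genes, which include the Fos and Jun partners of the AP-1 factor, 39 of 42 tested rose in quiescent cells against liver and 0 fell, with a median of 4.83 against 1.62 over all genes, and 33 rose and 3 fell with median-of-ratios rescaling. In culture 28 of 42 fell and 1 rose against quiescent cells, with a median of -1.87 against 0.26 and with 13.2% of all genes called lower. Fosb fell by 10.65 from 3282 TPM, Fos fell by 9.37 from 7230 TPM, and Zfp36, which drives decay of AU-rich messages, fell by 5.67. The gene that rose was Fosl1, another AP-1 subunit, from 1.75 to 84.1 TPM. Early genes as a list were therefore lower in culture, and Fosl1 went against them.

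The Egr corepressors and cofactors moved less. In culture against quiescent cells 1 of 7 rose, Nab2, from 21.4 to 49.3 TPM, and 0 fell, but with either rescaling 0 rose. In quiescent cells against liver 7 of 7 rose, led by Ctbp2 at 5.54, and 2 of 7 with median-of-ratios rescaling. Of the Nr4a partners and coregulators, 0 of 8 tested rose in culture and 1 fell, Rxra, the retinoid receptor that pairs with Nr4a1 and Nr4a2, from 249.8 to 114.03 TPM. In quiescent cells against liver 8 of 10 rose and 2 fell, among them Nr5a2, and with median-of-ratios rescaling 1 rose and 2 fell. Of 24 upstream kinases and transcription factors, 3 rose in culture (Atf1, Mapk7 and Map2k2) and 1 fell (Mef2c). With either rescaling 2 rose and 4 fell, and Map2k2 lost its call. In quiescent cells against liver 21 of 25 rose and 1 fell, including rises of Srf at 4.73 and Elk3 at 4.74, and with median-of-ratios rescaling 11 rose and 3 fell. The share of all genes called higher in that comparison was 67.0%.

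Against liver, control cultures had 35 of 41 other early genes higher and 2 lower, the latter being Zfp36 at -1.89 and Fos at -1.46. So Fos stood lower in culture than in liver, as Egr1 and Ier2 did short of the fold minimum, while Klf4 at 6.97 and Klf6 at 6.49 stood higher. The Egr cofactors had 7 of 7 higher, the Nr4a partners 8 of 10 higher and 2 lower, and the upstream genes 23 of 25 higher and 1 lower, where 74.5% of all genes were called higher. With median-of-ratios rescaling 16 other early genes were higher and 10 lower, 2 Egr cofactors were higher and 0 lower, 1 Nr4a partner was higher and 3 lower, and 8 upstream genes were higher and 3 lower. Under it Fos, Zfp36, Klf4 and Klf6 kept their direction and call. With UDP-glucose 2 of 40 other early genes rose, Gadd45g by 0.86 (limma adjusted p = 0.00153) and Ccn1, a matrix-associated signalling protein, by 0.71 (limma adjusted p = 0.00597). None of the 7 Egr cofactors, 8 Nr4a partners or 24 upstream genes tested was called by limma, and 1 upstream gene was with either rescaling. The lists were chosen with earlier results of these data known.

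The genes most like 3 of the members over the 13 libraries were found by Pearson correlation on log2(TPM + 1) among 8358 genes averaging 10 TPM or more. The libraries form 4 groups, so these values mostly describe group means. For Egr1 the highest were Fos at 0.999 and Ier2 at 0.996, then Myo7a, Serpina3f and C1ra. For Nr4a1 they were Junb at 0.997 and Fosb at 0.994, then Ptprt, Ttyh1 and Cpq. For Ier3 they were Syt9, Spsb1, Rcsd1, C1qtnf5 and Pcolce, all at 0.999, and none of these 5 is on the early gene list. Pcolce, which enhances collagen processing, averaged 764 TPM in quiescent cells, 191.7 in control cultures and 3.80 in liver, an order shared with Ier3.

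In the single-cell library Ier2, Ier5, Egr1, Ier3 and Nr4a1 gave nearly all of the signal, and the other members were sparse. After filters 4808 of 5063 barcodes were kept, and the 10 members gave 4446 unique molecular identifiers (UMIs). Ier2 gave 1622, Ier5 1062, Egr1 954, Ier3 548 and Nr4a1 175, and Nr4a2, Egr2, Nr4a3 and Egr3 gave 48, 20, 14 and 3. Egr3 was seen as 1 UMI each in Kupffer-like, MHC class II myeloid-like and T cell-like cells, and Egr2 gave 0 UMIs in hepatocyte-like, sinusoidal endothelial-like and B cell-like cells. Egr4 was seen in 0 of 4808 cells, which by the limit of 3 counts allows a share of cells with a UMI of up to 0.0624%. Cells were grouped by clustering and named "-like" from markers, and since there was 1 library no test was made. The intervals given cover counting error only.

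Stellate-like cells (341 cells, led by Dcn, Colec11 and Ecm1) had a summed member level of 551 CPM (the UMI count scaled to the total of the class, as TPM is to the library, with a 95% Poisson interval 509 to 596), against 370 in all other kept cells. Kupffer-like cells had a sum of 507 (462 to 554) and MHC class II myeloid-like cells 514 (444 to 591), with intervals that overlap that of stellate-like cells. Vein endothelial-like cells had a higher sum than stellate-like cells, 651 (588 to 718), and so had the hepatocyte-like cluster 9 described below, 628 (571 to 689). In stellate-like cells Ier2 gave 299 CPM (268 to 333). It was found in 49.0% of the cells, the highest share among named classes of at least 50 cells. Egr1 gave 90.7 (74.0 to 110), Ier3 76.6 and Ier5 66.0. Nr4a1 gave 14.1, and Egr2 and Nr4a2 were seen as 2 UMIs each. Within the members' UMIs Ier2 held 54.3% and Egr1 16.5%, where in the sorted bulk cells Egr1 held 47.1% and Ier2 16.1% of TPM. Strain label, sort, kit and unit differ between these and cannot be told apart.

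**Figure D4:**
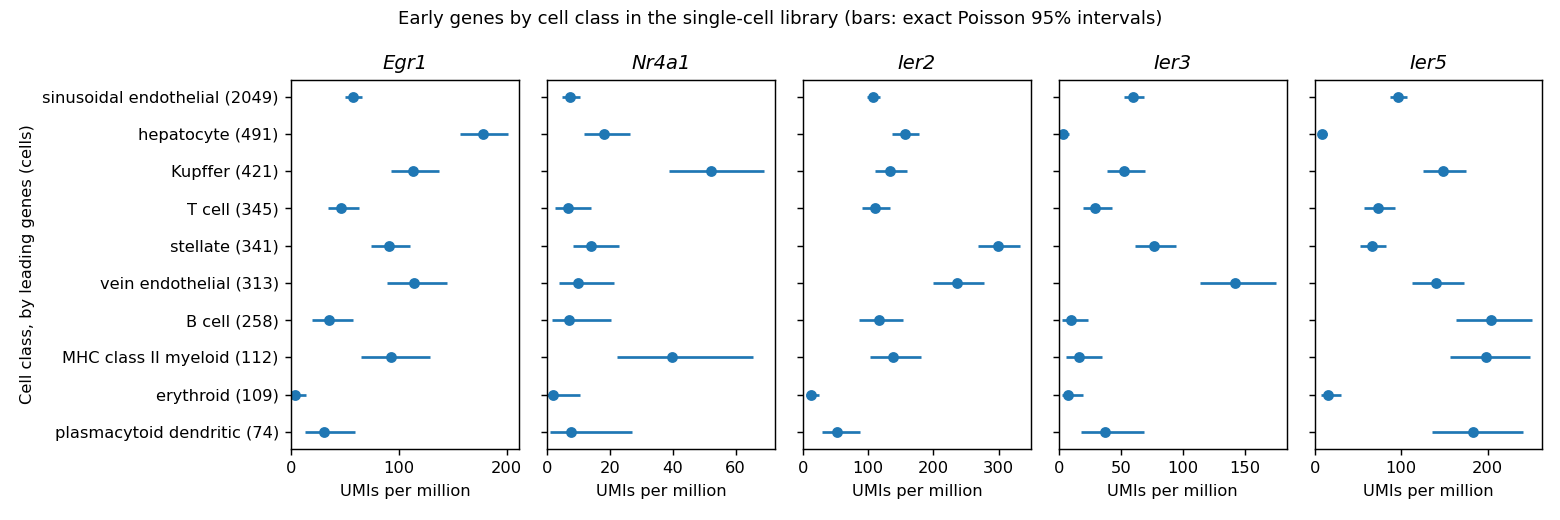
CPM of 5 members in the 10 named cell classes of at least 50 cells, with exact Poisson 95% intervals that cover counting error only (each panel has its own axis range). Stellate cells lead for Ier2 and hepatocytes for Egr1 at the settings plotted, though neither lead held under every alternative, vein endothelial cells lead for Ier3 and Kupffer cells for Nr4a1, and hepatocytes are near 0 for Ier3 and Ier5.

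Hepatocyte-like cells (491 cells) showed the same split as whole liver. Egr1 was at 178 CPM (157 to 201) and Ier2 at 156 (137 to 178), whereas Ier3 was at 3.48 (1.13 to 8.11) and Ier5 at 7.65 (3.82 to 13.7). The intervals of Ier3 and Ier5 lay below those of sinusoidal endothelial-like cells, at 59.95 (52.5 to 68.2) and 96.2 (86.6 to 107). Egr1 and Ier2 made up 48.9% and 42.9% of the members' UMIs in these cells, beside 45.0% and 48.2% of TPM in liver. Between this library and whole liver the strain label, digestion, kit and unit differ, so the shares are not alike in measure.

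The hepatocyte-like level of Egr1 came mostly from 1 of 2 clusters. Cluster 9 (156 cells, led by Cps1, Fga and Cyp3a11) had Egr1 at 332 and Ier2 at 248 CPM, and cluster 5 (335 cells, led by Fabp1, Gstp1 and Mup10) had 28.8 and 67.2. Of the members' UMIs, Egr1 gave 235 and Ier2 176 of 445 in cluster 9, and 21 and 49 of 79 in cluster 5. The shares set beside those of liver thus came mostly from cluster 9. Mitochondrial UMIs had a median of 13.1% in cluster 9 and 2.64% in cluster 5. With cells above 10% mitochondrial UMIs left out, Egr1 in hepatocyte-like cells was 67.1, Ier2 96.3 and Nr4a1 9.75 CPM, while Ier3 was 4.88. Egr1 was then higher in Kupffer-like cells, at 116 CPM, so the lead of hepatocyte-like cells for Egr1 was lost. It was also higher in stellate-like and MHC class II myeloid-like cells, whose lowest values over 6 alternatives were 75.3 and 92.4 CPM. The part of mitochondrial content in the higher values was not tested.

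Nr4a1 was prominent in Kupffer-like and MHC class II myeloid-like cells, and Ier5 in several immune classes. Kupffer-like cells (421), the resident macrophages, had the highest Nr4a1 of the classes above 50 cells at 52.3 CPM (38.7 to 69.1), followed by MHC class II myeloid-like cells (112) at 39.7 (22.2 to 65.5), whose intervals overlap. All 49 Nr4a1 UMIs of the Kupffer-like cells lay in cluster 4 (341 cells, 60.7 CPM). Cluster 14 (80 cells) had 0, with an upper bound of 28.4 CPM. Nr4a1 was at 7.30 (4.85 to 10.5) in sinusoidal endothelial-like cells (2049), 14.1 in stellate-like and 18.1 in hepatocyte-like cells. T cell-like, B cell-like and plasmacytoid dendritic-like cells had 6.47, 6.95 and 7.46. Ier5 was the highest member in B cell-like cells (258) at 204 (164 to 251), in MHC class II myeloid-like cells at 199 and in plasmacytoid dendritic-like cells (74) at 183. It was also the highest in Kupffer-like cells, at 148 (125 to 175), beside Ier2 at 133 (111 to 159), where Nr4a1 held 10.3% of the members' UMIs. In cluster 14 of that class Ier2 was at 84.6 (42.2 to 151) and Ier5 at 61.5 (26.5 to 121). Vein endothelial-like cells had Ier5 at 140 (112 to 173), close to Kupffer-like cells. In T cell-like cells (345) Ier2 was highest at 110.05 and Ier5 stood at 73.4. Erythroid-like cells (109), taken as a low reference, had 39.7 CPM over the 10 members (24.6 to 60.7).

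Vein endothelial-like cells (313, led by Fabp4, Cdh13 and Rspo3) had a summed member level of 651 CPM (588 to 718). They had the highest Ier3 of these classes at 142 (114 to 175), and Ier2 at 236 (200 to 278), below stellate-like cells. Their borders moved with the settings: over 6 alternatives Ier2 ran from 211 to 377 there and from 278 to 297 in stellate-like cells, so the order of these 2 classes was not fixed. Unnamed cluster 17 (48 cells), which carried both Kupffer and stellate genes, had the highest summed level above 10 cells, at 804 (679 to 945). Doublets were not removed, and their part in that cluster was not tested.

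Depth differed between classes, so shares of cells were also read at 1000 UMIs per cell. Ier2 was then found in 23.6% of 339 stellate-like cells (exact 95% interval 19.2 to 28.5), in 18.0% of vein endothelial-like (13.9 to 22.7), in 9.73% of hepatocyte-like and in 9.65% of sinusoidal endothelial-like cells. Without thinning the shares were 49.0%, 29.7%, 21.2% and 17.0%. At 500 UMIs per cell Ier2 was found in 10.3% of stellate-like (7.25 to 14.0) and 9.90% of vein endothelial-like cells (6.83 to 13.8), nearly equal shares. For Egr1 the share at 1000 UMIs was 11.4% in hepatocyte-like cells (8.69 to 14.6) and 7.96% in stellate-like cells (5.31 to 11.4). Cells above 10% mitochondrial UMIs were included here. Erythroid-like cells, at 1 of 108 for Ier2 and 0 for Egr1, gave the low reference. Before thinning their median depth was 4882 UMIs, against 3149 in stellate-like cells. Those UMIs fell on a median of only 251 genes, against 1585 in stellate-like cells, which limits them as a reference. The shallower cells left out at 1000 UMIs numbered 2 stellate-like, 2 vein endothelial-like, 18 hepatocyte-like, 29 sinusoidal endothelial-like and 1 erythroid-like.

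Overlap with other gene models was small. None of the 10 shared an exon base with another gene model of the GENCODE annotation, on either strand. At most 0.523% of a member's 31-base words, in Egr3, were found in transcripts of any other gene, and Egr2, Egr3 and Egr4 shared at most 0.5002% with other members.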

How the data were processed

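Bulk RNA was measured in 13 libraries and single cells in 1. The authors deposited TPM values per gene in 3 tables, with kallisto 0.44.0 and bcl2fastq 2.19 named in the submitters' processing notes; the sources used here do not give the strand setting. TPM keeps no read depth, and sums per library were 998190 to 999797. The authors deposited counts of UMIs per gene and cell, with Cell Ranger named in the same notes. Of 35197 bulk rows, 26 whose names had turned into dates were left out (at most 0.3195% of TPM).

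Groups came from the labels. Each comparison was fitted on its own libraries with limma 3.58.1 (R 4.3.3, trended variance) on log2(TPM + 1), for genes averaging 1 TPM or more, with Benjamini-Hochberg adjustment over all of them. Calls needed an adjusted p under 0.05 and a log2 change of 1 or more in size, and the adjusted p alone for UDP-glucose. Scripts were tested on simulated data. Named were the 10 members, up to 3 called genes per list, direction and comparison with at least 5 TPM, the 5 genes most like Egr1, Nr4a1 and Ier3, and the identity genes Lrat and Alb. Members and lists were chosen with earlier results of these data known.

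Cells with at least 500 UMIs and 200 genes and at most 20% mitochondrial UMIs were clustered with scanpy 1.11.5 (Leiden resolution 1, 22 clusters, of which 18 were named from markers). A doublet caller marked 1 cell (0.0208%) and was not used. Levels are CPM over the summed UMIs of a class. Alternatives covered the pseudocount, filters, scaling, a shared fit, left-out replicates and the cell filters and clustering.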

Additional observations from a re-analysis of the deposited data

How the results depend on the processing

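The 9 tested members were called in quiescent cells against liver and in culture against quiescent cells under every alternative run, and with UDP-glucose 0 members were called under any. In quiescent cells against liver, genes called numbered 9847, and 6490 with quantile normalisation. In culture against liver, genes called fell from 10672 to 5983 with median-of-ratios rescaling and 6173 with quantile normalisation. Members called there were 5, 2 with a filter at 5 TPM (fewer genes tested) and 5 to 8 with a replicate left out, the highest without liver replicate 1. Nr4a1 there, at 0.17, was -1.94 with median-of-ratios rescaling, -1.71 with quantile normalisation and -0.33 to 0.50 with a replicate left out, the lowest without liver replicate 1. With UDP-glucose, genes called fell from 74 to 30 with no filter, 21 in 1 fit over all groups and 20 to 64 with a replicate left out. Egr3 (-0.04) was 0.046 with quantile normalisation and -0.27 to 0.14 with a replicate left out, and Ier2 (0.05) was -0.028 to 0.12. The cause of these shifts was not tested. Members in all other kept cells went from 370 to 356 CPM at 10% mitochondrial UMIs. Rescaled counts of the gene lists were added after seeing the data. No paired analysis was possible because the labels give the groups no shared replicate numbers. TPM keeps no depth, so the precision of low values such as Egr4 is unknown.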
